A study of Setaria viridis with 24 samples.

Results

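The genes described here had lower transcript levels at day 9 than at day 6 after sowing in both the crown and the stem of Setaria viridis, with or without drought. They numbered 48 of the 20865 genes that had a value in all 8 groups of the study. The members were selected on the authors' FPKM values (fragments scaled to transcript length and sequencing depth), with ratios taken of FPKM + 1. Each had a ratio of day 9 to day 6 of at most 0.6 in watered crown, drought crown, watered stem and drought stem. Each also had a ratio of drought to watered between 0.7 and 1.4 in all 4 pairs of region and day, and at least 5 FPKM in its highest group. The ratios of day 9 to day 6 and of drought to watered thus chose the members and are given below as a description, without a test. The ratio of crown to stem was not used in the choice, although the limit on level, which removed 2 genes, acts through a gene's highest group.

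Setaria viridis, a small C4 grass, was sampled as bulk tissue, and the labels name no accession or genotype below the species. The lower region was the crown and the upper region the stem, each taken from plants that were watered or under drought, at 6 or 9 days after sowing. The 8 groups were therefore watered and drought crown at day 6, watered and drought crown at day 9, and the same 4 combinations of stem. Each group had 3 libraries, 1 from each of 3 biological repeats, each made from 20 plants raised in peat with sand added, and the authors gave 1 FPKM value per gene and group.

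The crown of a grass is the compact shoot base with its nodes and short internodes, from which shoot-borne roots emerge, and the title of the series names the suppression of these roots in drought. Grass stems and leaves grow from meristems near their base, so that dividing, elongating and mature cells lie along 1 organ and their proportions shift as a seedling ages. RNA from a whole region averages over all of these cells. Fewer cells of a type and less RNA per cell cannot be told apart in such samples, here and in all results that follow.

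The files give no gene names or functions, and the name table used, with 34587 genes, held 0 of the 20865 identifiers, so genes are called by their identifiers and no cell type or pathway could be checked. The build is not given in the sources used here. Coordinates are those of the files. The members lay on all 9 chromosomes, with 8 on chromosome 1, 9 on chromosome 2, 8 on chromosome 3, 2 on chromosome 4, 6 on chromosome 5, 3 each on chromosomes 6, 7 and 8, and 6 on chromosome 9. Their loci were mostly short: the span in the files had a median of 2581 bp, against 3592 bp over all genes, and 34 of the 48 were shorter than that median. Sevir.2G141500, Sevir.6G053100 and Sevir.9G116600 each share their position entry with 1 other gene, so that the authors' counting could have divided fragments between the genes, and the values of these 3 are uncertain.

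The members differed by more than 2 orders of magnitude in level. In their highest group they ranged from 5.95 FPKM for Sevir.1G280700 to 1727 FPKM for Sevir.5G172700, with 3 members at or above 1000 FPKM, 17 at or above 100 FPKM and 11 under 20 FPKM. The highest group was the watered day 6 stem for 39 members and the drought day 6 stem for 6, while the watered day 6 crown was highest for 2 and the drought day 6 crown for 1. The lowest group was a day 9 crown for 43 members, under drought for 33 of them. The other 5 were lowest in a day 9 stem.

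The 8 groups fell in a regular order. The median member stood at 54.5 FPKM in the watered and 51.2 FPKM in the drought day 6 stem. It stood at 23.3 and 20.2 FPKM in the watered and drought day 9 stem, at 20.4 and 19.3 FPKM in the day 6 crown, and at 9.00 and 8.20 FPKM in the day 9 crown. The day 9 stem and the day 6 crown were thus at about the same median level, and the day 9 crown was lowest. The median over all genes moved little between groups, from 9.85 to 10.6 FPKM. As a share of the summed FPKM of all genes, the 48 members made up 1.11% in the watered day 6 stem, 0.572% in the watered day 9 stem, 0.437% in the watered day 6 crown and 0.236% in the watered day 9 crown. Under drought these shares were 0.954%, 0.476%, 0.415% and 0.230% in the same order.

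**Figure D1:**
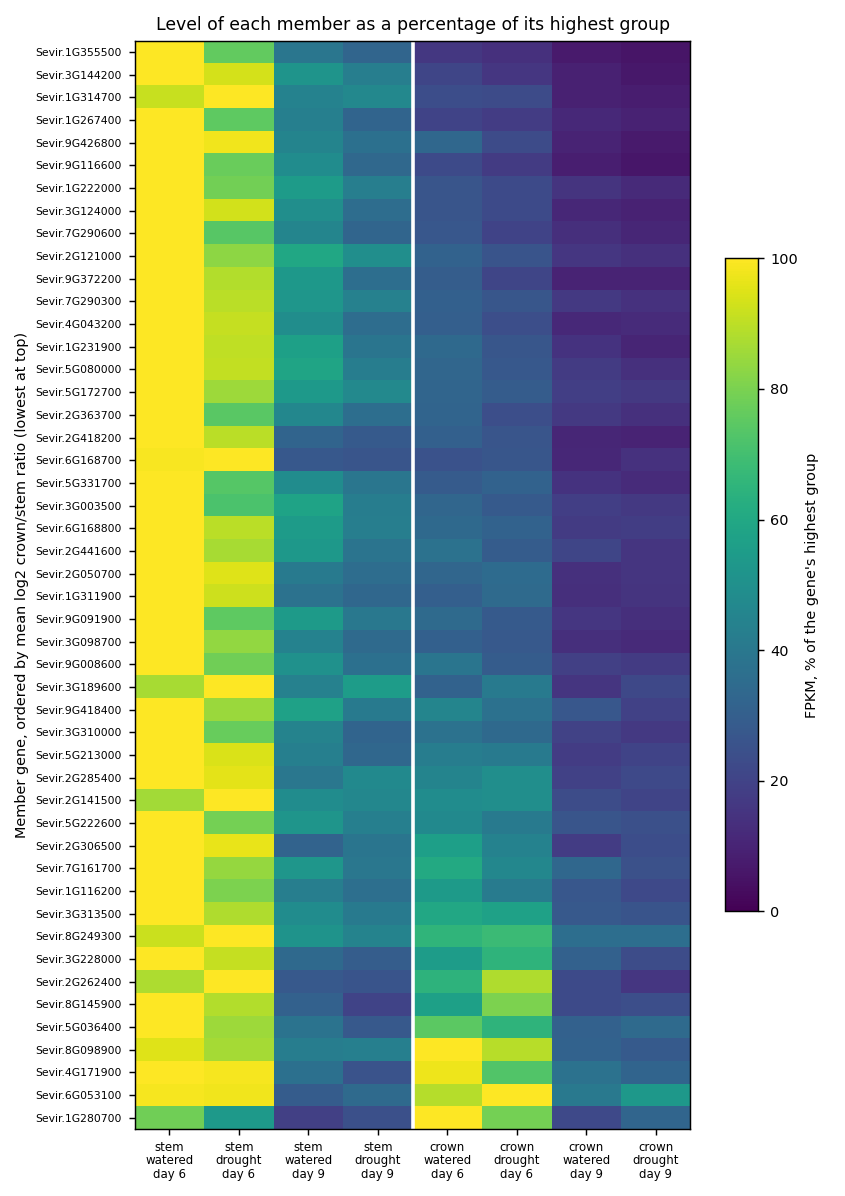
Level of each of the 48 members in the 8 groups, as a percentage of the gene's own highest FPKM; rows are genes, ordered by their mean log2 ratio of crown to stem with the lowest on top, and columns are groups. The median member was at 100% in the watered and 88.4% in the drought day 6 stem, and at 17.4% and 15.6% in the watered and drought day 9 crown.

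The 10 most abundant members are headed by Sevir.5G172700 on chromosome 5 (17228354 to 17229660). Its level was 1727 FPKM in the watered and 1475 FPKM in the drought day 6 stem, 933 and 812 FPKM in the day 9 stem, 563 and 503 FPKM in the day 6 crown, and 320 and 288 FPKM in the day 9 crown. In this gene both day 9 stem groups lay above both day 6 crown groups. In the authors' deposited table this gene had an age log2 fold change of -0.82 in the watered crown with a q-value of 0.0461, and q-values of 0.0512, 0.0918 and 0.115 in the drought crown, watered stem and drought stem, so the most abundant member passed the authors' q of 0.05 in 1 of the 4 age comparisons.

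Sevir.1G267400 on chromosome 1 (32954938 to 32955816) and Sevir.2G363700 on chromosome 2 (42039210 to 42040480) came next. Sevir.1G267400 had 1287 and 968 FPKM in the watered and drought day 6 stem, 557 and 412 FPKM in the day 9 stem, 259 and 230 FPKM in the day 6 crown, and 148 and 122 FPKM in the day 9 crown. Sevir.2G363700 had 1205 and 898 FPKM, 557 and 435 FPKM, 389 and 290 FPKM, and 200 and 167 FPKM in the same order. These 2 genes were equal at 557 FPKM in the watered day 9 stem but not in the crown, where Sevir.2G363700 was higher on both days.

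The other 7 abundant members had lower values in the same pattern, apart from Sevir.6G053100. From the watered day 6 stem to the drought day 9 crown, the levels ran from 764 to 188 FPKM for Sevir.5G222600, from 618 to 95.8 FPKM for Sevir.2G441600 and from 352 to 60.7 FPKM for Sevir.9G008600. For Sevir.7G290600 they ran from 336 to 36.0 FPKM, for Sevir.1G222000 from 212 to 25.4 FPKM and for Sevir.3G003500 from 197 to 32.4 FPKM. Sevir.6G053100 (chromosome 6, 4449843 to 4465932) was highest in the drought day 6 crown at 247 FPKM and is described with the members that were called in no region table.

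Across the 48 members the median ratio of day 9 to day 6, on the FPKM + 1 scale, was 0.501 in watered crown, 0.535 in drought crown, 0.504 in watered stem and 0.463 in drought stem. The median over all genes was 1.02, 1.03, 0.990 and 1.00 in these pairs. All 4 ratios were at or under 0.5 in 8 members. The day 9 ratio was the smaller in stem for 30 members in watered and for 33 in drought plants, and under drought it was the smaller for 20 members in crown and for 34 in stem. Across the 48 members the mean log2 age ratio of the crown and that of the stem had a Pearson's r of 0.51 and a Spearman's rho of 0.59, a description over genes whose ratios come from the same libraries and were all limited by the threshold.

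**Figure D2:**
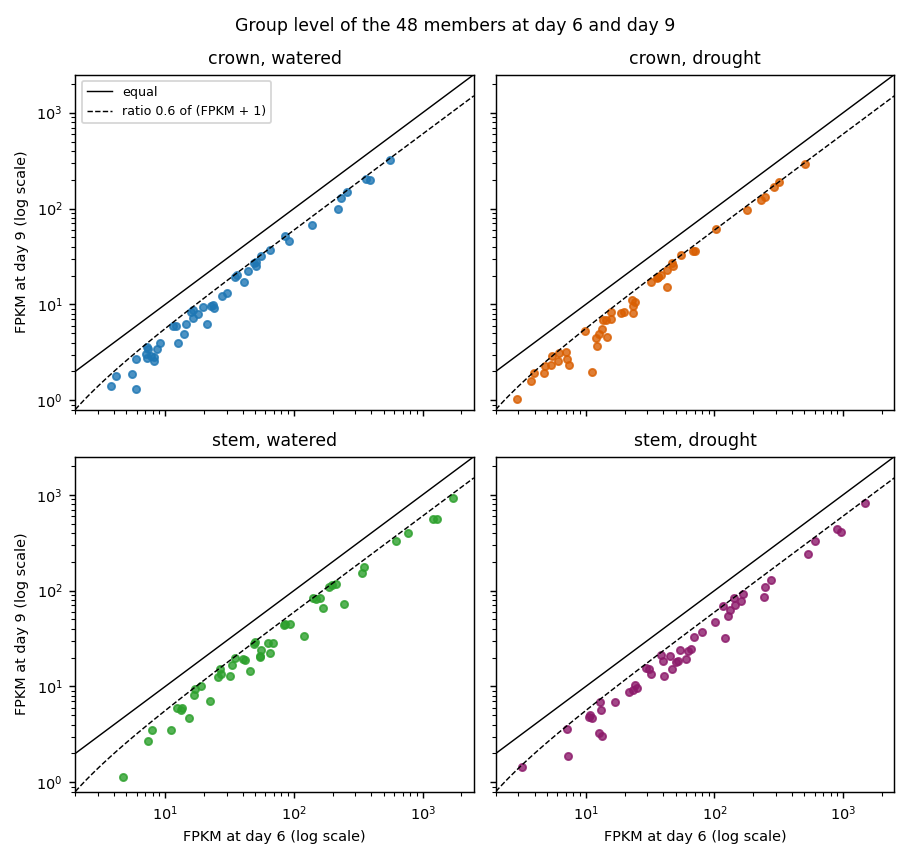
FPKM at day 9 against FPKM at day 6 for the 48 members in 4 panels (crown and stem, watered and drought), on log axes; the solid line marks equal levels and the dashed line a ratio of 0.6 of FPKM + 1, which the rule sets. The points lie on or under the dashed line over the whole range of levels, up to 1727 FPKM at day 6.

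The authors' deposited tables list a q-value from Cuffdiff for each gene and pair of groups. In them, 39 of the 48 members were called lower at day 9 in the watered crown (q under 0.05), against 2.0% of all genes listed there. In the drought crown 32 members were called, against 2.59% of all genes, in the watered stem 40 members, against 6.76%, and in the drought stem 37 members, against 7.30%. The rule used these same ratios, so nothing is read from the difference between members and background. Of the members, 27 were called in all 4 tables, 8 in 3, 6 in 2, 4 in 1 and 3 in none. The share of all genes called in all 4 age tables was not counted, so nothing is read from the 27 either. The 3 without a call were Sevir.2G141500, Sevir.4G171900 and Sevir.9G116600.

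In these 3 genes a ratio under the threshold was not a call in any age table. Sevir.2G141500 and Sevir.9G116600 each share their position entry with another gene, so their values are uncertain. Sevir.9G116600 had 16.9 and 13.1 FPKM in the watered and drought day 6 stem, 8.22 and 5.71 FPKM in the day 9 stem, 3.82 and 2.95 FPKM in the day 6 crown, and 1.41 and 1.03 FPKM in the day 9 crown. Its age log2 fold changes in the authors' deposited tables ran from -1.52 to -1.04, with q-values from 0.763 to 0.805. Sevir.4G171900, the member with the shortest span at 418 bp, had at most 7.33 FPKM and q-values from 0.268 to 0.469 in the authors' deposited tables. Sevir.2G141500 had up to 40.2 FPKM, and its q-values in the authors' deposited tables ran from 0.098 to 0.233.

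The lowest mean age ratio was that of Sevir.2G262400 (chromosome 2, 34331397 to 34332943), at 0.331 over the 4 pairs. Its level was 11.1 and 12.7 FPKM in the watered and drought day 6 stem, 3.53 and 3.28 FPKM in the day 9 stem, 8.21 and 11.2 FPKM in the day 6 crown, and 2.84 and 1.99 FPKM in the day 9 crown. All 4 values of day 6 lay above all 4 of day 9, in either region. In the authors' deposited tables it was called lower at day 9 under drought, with a log2 fold change of -2.49 and a q-value of 0.0154 in crown and of -1.95 and 0.015 in stem, but not in watered plants, where the q-values were 0.0982 in crown and 0.0758 in stem.

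Sevir.8G145900 (chromosome 8, 25787822 to 25789077), with a mean age ratio of 0.356, had 15.2 and 13.4 FPKM in the watered and drought day 6 stem, 4.74 and 3.06 FPKM in the day 9 stem, 8.66 and 12.2 FPKM in the day 6 crown, and 3.40 and 3.66 FPKM in the day 9 crown. Its days did not overlap either. Sevir.2G418200 (chromosome 2, 45441241 to 45446006), with a mean ratio of 0.371, had 45.2 and 40.6 FPKM, 14.5 and 12.9 FPKM, 13.9 and 12.0 FPKM, and 4.91 and 4.50 FPKM in the same order of groups. In this gene the day 9 stem and the day 6 crown were at nearly the same level.

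The mean age ratio was 0.372 for Sevir.6G168700, 0.379 for Sevir.9G426800, 0.398 for Sevir.3G228000, 0.402 for Sevir.6G053100, 0.420 for Sevir.5G036400, and 0.422 for both Sevir.2G306500 and Sevir.1G311900. Averaged over watered and drought plants, the ratio was lower in stem than in crown in all of these genes except Sevir.9G426800. Sevir.6G168700 had an age log2 fold change of -1.84 in watered stem and of -1.20 in watered crown in the authors' deposited tables. Sevir.9G426800 had the reverse order, at -1.15 in watered stem and -1.77 in watered crown in the authors' deposited tables. Whether the age difference of a gene differed between the regions was not tested, since the tables hold no value per library.

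**Figure D3:**
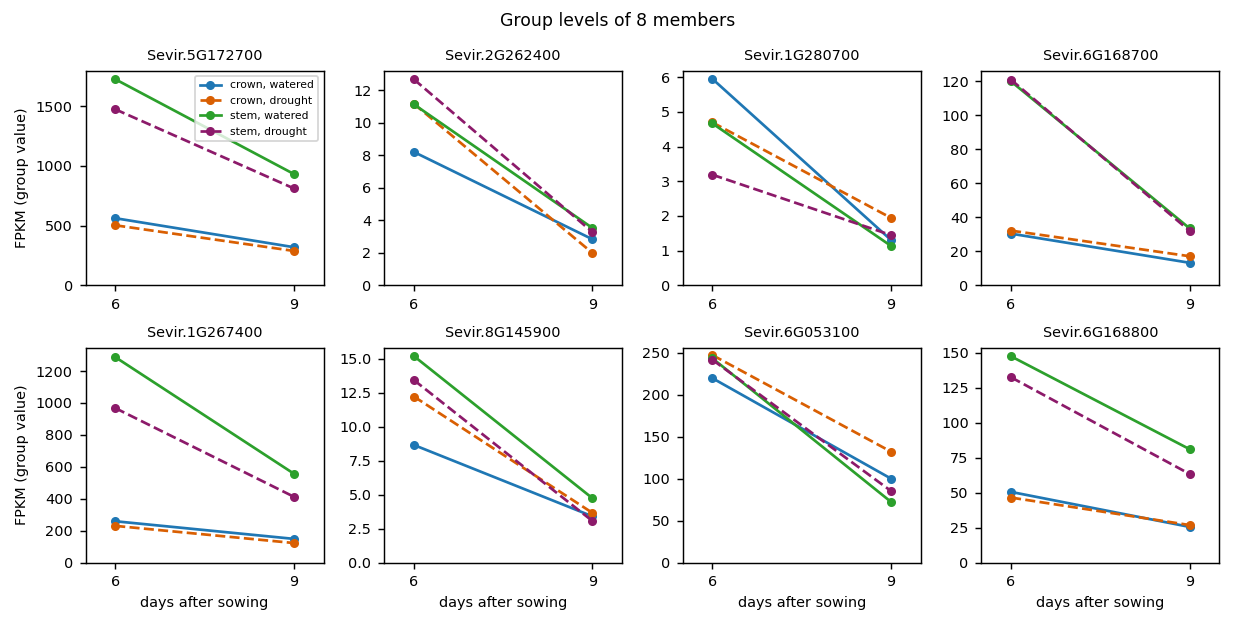
FPKM of 8 members in the 8 groups, 1 point per group and 1 panel per gene, with no error bar because the tables give 1 value per group. Sevir.5G172700 and Sevir.1G267400 were higher in stem than in crown in each of the 4 pairs, Sevir.2G262400 and Sevir.8G145900 had all day 6 values above all day 9 values, and Sevir.1G280700 was higher in crown in each pair.

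The members just inside the threshold were Sevir.9G418400, whose largest age ratio was 0.5997, Sevir.1G116200 at 0.599 and Sevir.2G121000 at 0.598. Just outside lay Sevir.6G164700 at 0.602, Sevir.9G443800 at 0.603 and Sevir.9G470000 at 0.607, which met every other condition. The values on both sides were alike in kind. Sevir.9G418400 had 188 and 108 FPKM in the watered day 6 and day 9 stem and 86.0 and 51.2 FPKM in the watered day 6 and day 9 crown. Sevir.6G164700 had 886 and 503 FPKM, and 308 and 185 FPKM, in the same groups. A further 140 genes met the rule except that their largest age ratio lay above 0.6 and up to 0.7, so the 48 members are the lower end of a continuous range.

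The limit on drought removed more genes than it kept. Of 145 genes with all 4 age ratios at most 0.6 and at least 5 FPKM, 97 had a drought ratio outside the window, of which 93 had a ratio of at most 0.7 in at least 1 pair and 4 a ratio of at least 1.4. The members that remained still leaned to lower values under drought. Their median ratio of drought to watered was 0.871 in crown at day 6, 0.891 in crown at day 9, 0.893 in stem at day 6 and 0.819 in stem at day 9, and 153 of the 192 ratios were below 1. All 4 were below 1 in 27 members (56.25%) and in 55.0% of the 140 genes just outside the age threshold. The share was 17.1% in the 11375 genes that had the same level and drought window and any age ratio. The drought and the age ratios have groups in common, so this is a description.

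The window of the rule fixed the calls between drought and watered plants. No member was called different in the authors' deposited tables, and so were 0 of all genes of the same level and drought window, so nothing is read from these counts. They were 0 of 48 members in the crown at day 6 (2.08% of all genes called), 0 of 44 in the crown at day 9 (6.37%), 0 of 48 in the stem at day 6 (1.44%) and 0 of 47 in the stem at day 9 (3.63%). The lowest q-value of a member in these authors' deposited tables was 0.269, for Sevir.7G290600 in the day 9 stem. That gene had 153 FPKM in the watered and 110 FPKM in the drought day 9 stem.

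Most members were lower in the crown than in the stem, a comparison the rule did not use. In the authors' deposited tables, 36 of 48 members were called lower in the crown in watered plants at day 6, against 12.3% of all genes listed, and 36 of 48 under drought at day 6, against 10.7%. At day 9 it was 33 of 47 members in watered plants, against 6.88%, and 31 of 46 under drought, against 6.64%. No member was called higher in the crown in any of the 4 tables, where 8.30%, 6.44%, 12.0% and 11.6% of all genes were, in the same order. Of the 46 members listed in all 4 tables, 31 were called lower in the crown in each of them, against 4.27% of all genes so listed. The age and the region comparisons share groups: the day 6 stem, for example, enters both, and no test of the members as a set was made.

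The difference was large and of similar size in each pair. The median log2 ratio of crown to stem over the members, on the FPKM + 1 scale, was -1.47 in watered and -1.37 in drought plants at day 6, and -1.38 and -1.17 at day 9. Over all genes it was 0.05, 0.03, 0.05 and 0.05. Averaged over the 4 pairs, the median member was 2.60-fold higher in the stem. The crown was below the stem in all 4 pairs in 42 of the 48 members, or 87.5%, compared with 19.8% of all genes and 23.9% of the genes of the same level and drought window. In 29 members the crown was at or below a ratio of 0.5 to the stem in all 4 pairs.

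**Figure D4:**
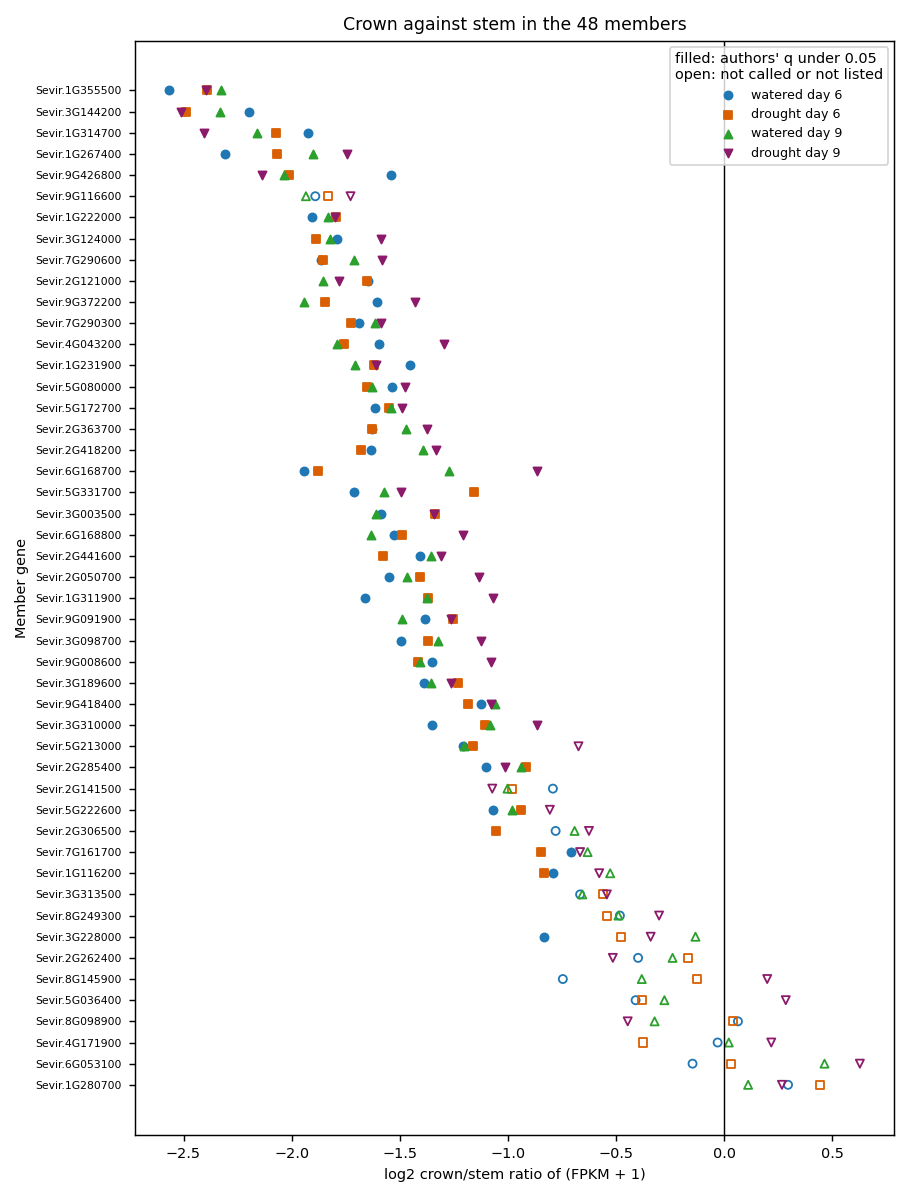
Log2 ratio of crown to stem (FPKM + 1) for each of the 48 members in the 4 pairs of water supply and day; filled points were called by the authors at a q-value under 0.05 and open points were not. Filled points all lie below 0, and only Sevir.1G280700 lies above 0 in all 4 pairs.

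On the FPKM + 1 scale, which also ranks the genes that follow, the largest mean difference between regions was in Sevir.1G355500 (chromosome 1, 39393123 to 39403237). It was 5.35-fold higher in the stem on average. Its level was 167 and 127 FPKM in the watered and drought day 6 stem, 65.5 and 54.6 FPKM in the day 9 stem, 27.4 and 23.4 FPKM in the day 6 crown, and 12.3 and 9.57 FPKM in the day 9 crown. Each stem value, that of day 9 included, was above each crown value. The log2 fold change of crown over stem in the authors' deposited tables, where no 1 is added, ran from -2.61 to -2.42. Each had a q-value of 0.00091, the lowest that occurs in the tables. The lowest such log2 fold change of a member was -2.71, for Sevir.3G144200 under drought at day 9.

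Sevir.3G144200 (chromosome 3, 9960564 to 9961386) was next at 5.21-fold, with 85.6 and 80.1 FPKM in the watered and drought day 6 stem, 44.4 and 36.6 FPKM in the day 9 stem, 17.9 and 13.5 FPKM in the day 6 crown, and 8.01 and 5.59 FPKM in the day 9 crown. Sevir.1G314700 (chromosome 1, 36338082 to 36339485) followed at 4.41-fold, with 93.3 and 102 FPKM, 44.9 and 47.5 FPKM, 23.8 and 23.4 FPKM, and 9.28 and 8.15 FPKM in the same order. In both genes, as in Sevir.1G355500, the regions did not overlap across days. Sevir.1G267400 was 4.02-fold and Sevir.9G426800 3.81-fold higher in the stem, and both were called in all 4 of the authors' deposited tables.

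Sevir.9G116600 was 3.60-fold higher in the stem on the FPKM + 1 scale without being called. Its log2 fold changes in the authors' deposited tables, where no 1 is added, ran from -2.54 to -2.14. These had q-values from 0.574 to 0.689. It is 1 of the 3 members with a shared position entry.

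The 31 members called in all 4 tables were 1.99-fold to 5.35-fold higher in the stem, with a median of 2.88-fold. They had a median of 85.6 FPKM in their highest group, which was the watered day 6 stem in 28 of them, and a median of their mean age ratio of 0.503. The 6 members called in 1 to 3 tables were Sevir.1G116200, Sevir.2G306500, Sevir.3G228000, Sevir.5G213000, Sevir.5G222600 and Sevir.7G161700, which were 1.36-fold to 2.09-fold higher in the stem. Among these 6, Sevir.5G222600 and Sevir.5G213000 missed the threshold only under drought at day 9, with q-values of 0.0774 and 0.212 in the authors' deposited table.

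The 11 members called in no region table were Sevir.1G280700, Sevir.2G141500, Sevir.2G262400, Sevir.3G313500, Sevir.4G171900, Sevir.5G036400, Sevir.6G053100, Sevir.8G098900, Sevir.8G145900, Sevir.8G249300 and Sevir.9G116600. They were mostly low in level, with a median of 15.2 FPKM in the highest group, and 3 of them share a position entry. Their ratio of stem to crown ran from 0.824 to 3.60 with a median of 1.20, and their mean age ratio had a median of 0.442. A lack of a call at this level does not show that the regions were equal. Over all 48 members the mean log2 age ratio and the mean log2 ratio of crown to stem had a Pearson's r of -0.28 and a Spearman's rho of -0.17, again a description over genes that share the same libraries.

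Sevir.6G053100 was the abundant gene among the 11. It shares its position entry with another gene, so its values are uncertain. It had 243 and 241 FPKM in the watered and drought day 6 stem, 72.2 and 85.2 FPKM in the day 9 stem, 219 and 247 FPKM in the day 6 crown, and 99.9 and 132 FPKM in the day 9 crown. The 4 day 6 values lay close together in both regions and above all 4 day 9 values, and at day 9 the crown was above the stem. The crown over stem log2 fold changes in the authors' deposited tables were -0.15 (watered) and 0.03 (drought) at day 6, then 0.47 and 0.63 at day 9, with q-values from 0.337 to 0.978.

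Sevir.1G280700 (chromosome 1, 34008458 to 34011475) was the single member above the stem level in the crown in all 4 pairs. It had 5.95 and 4.70 FPKM in the watered and drought day 6 crown, 4.67 and 3.19 FPKM in the day 6 stem, 1.31 and 1.94 FPKM in the day 9 crown, and 1.14 and 1.45 FPKM in the day 9 stem. The crown over stem log2 fold changes of day 6 in the authors' deposited tables were 0.35 in watered and 0.56 in drought plants, with q-values of 0.667 and 0.45, and the gene was not listed in the day 9 tables.

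Sevir.5G036400 (chromosome 5, 2715609 to 2718526) had 54.9 and 46.9 FPKM in the watered and drought day 6 stem, 21.0 and 15.4 FPKM in the day 9 stem, 41.1 and 35.8 FPKM in the day 6 crown, and 17.1 and 18.9 FPKM in the day 9 crown. The crown exceeded the stem only in drought plants at day 9. Sevir.8G098900, at 1.12-fold, and Sevir.4G171900, at 1.03-fold, were close to equal in stem and crown on average, and neither reached 10 FPKM in any group.

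Genes near the members in age ratio shared the difference between regions. Of the 140 genes with a largest age ratio above 0.6 and up to 0.7, the crown was below the stem in all 4 pairs in 92.1%, and 113 of 140 were called lower in the crown in watered plants at day 6. Genes with higher values at day 9 had the opposite order of regions. Only 21 genes had all 4 ratios of day 9 to day 6 at or above 1.67 with the same limits on drought and level. Of these, 12 of 18 listed were called higher in the crown in watered plants at day 6 and 15 of 21 under drought at day 9, and 1 of 18 and 0 of 21 were called lower, in the authors' deposited tables. These genes were selected with the same groups, so the contrast is a description without a test.

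**Figure D5:**
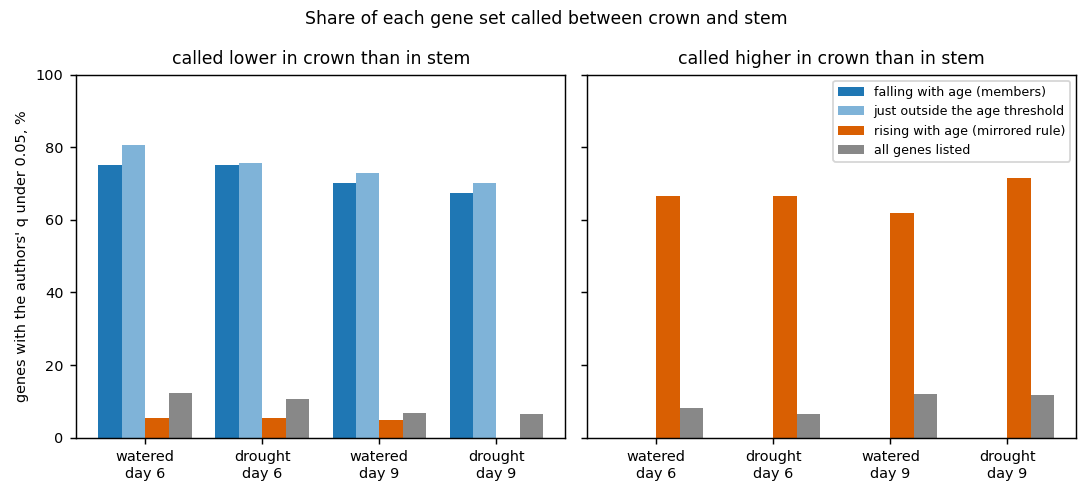
Percentage of genes called lower or higher in crown than in stem by the authors (q-value under 0.05) in each of the 4 tables, for the 48 members, the 140 genes just outside the age threshold, the 21 genes that were higher at day 9 in all 4 pairs, and all genes listed. Between 31 of 46 and 36 of 48 members and between 96 of 137 and 113 of 140 genes just outside were called lower in the crown and no member was called higher, while between 13 of 21 and 15 of 21 of the genes higher at day 9 were called higher in the crown.

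Of the combinations of region and day, the stem at day 9 and the crown at day 6 had the nearest median levels. The day 9 stem was above the day 6 crown in 34 of the 48 members in watered plants and in 29 under drought. This was not counted over all genes. The median log2 fold change of older stem over younger crown in the authors' deposited tables was 0.41 in watered plants and 0.32 under drought over the members. Over all genes it was -0.001 and 0.03. In the authors' deposited tables the older stem was called higher than the younger crown for 8 members in watered plants, against 3.93% of all genes, and for 6 under drought, against 2.89%. It was called lower for 4 members in watered plants, against 4.43%, and for 6 under drought, against 3.99%. Most members were thus called in neither direction, which does not show that the 2 groups were equal. Calls were more frequent among members than among all genes, but the rule acted on both groups compared. The day 9 stem had to lie below the day 6 stem, and the day 6 crown above the day 9 crown. Nothing is therefore read from the difference between members and all genes. The older stem was called higher in 16.7% of members in watered plants and in 12.5% under drought. It was called lower in 8.33% and 12.5%. Among the listed genes just outside the age threshold, the older stem was called higher in 20.0% and 11.5% and lower in 2.86% and 2.16%. In the genes higher at day 9, these shares were 23.8% and 19.0%, and 9.52% and 4.76%.

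The members called higher in the older stem in both tables were Sevir.1G222000, Sevir.1G267400, Sevir.1G314700, Sevir.1G355500, Sevir.2G121000 and Sevir.3G144200. Sevir.3G144200 had 44.4 FPKM in the watered day 9 stem and 17.9 FPKM in the watered day 6 crown, a log2 fold change of 1.31 with a q-value of 0.0017 in the authors' deposited table. Those called lower in both were Sevir.1G280700, Sevir.5G036400 and Sevir.6G053100, all 3 without a region call on either day. Sevir.6G053100 had 72.2 FPKM in the watered day 9 stem and 219 FPKM in the watered day 6 crown, a log2 fold change of -1.60 with a q-value of 0.00091 in the authors' deposited table. Its position entry is shared with another gene.

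A single pair of members were direct neighbours among the listed genes: Sevir.6G168700 (chromosome 6, 28015216 to 28019740) and Sevir.6G168800 (28019866 to 28024959), 125 bp apart. Sevir.6G168700 had 120 and 121 FPKM in the watered and drought day 6 stem, 33.5 and 32.0 FPKM in the day 9 stem, 30.4 and 32.1 FPKM in the day 6 crown, and 13.2 and 17.1 FPKM in the day 9 crown. Sevir.6G168800 had 147 and 132 FPKM, 81.0 and 63.2 FPKM, 50.4 and 46.4 FPKM, and 25.4 and 26.8 FPKM in the same order. The 2 genes were closer in level in the day 6 stem than in the day 9 stem. The listed genes on either side did not have the pattern: Sevir.6G168600 stayed between 23.0 and 26.5 FPKM and Sevir.6G168900 between 24.9 and 32.5 FPKM over the 8 groups.

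Sevir.7G290300 and Sevir.7G290600 on chromosome 7 lay 11595 bp apart with 1 listed gene between them. Sevir.7G290300 (31770887 to 31775813) had 160 and 144 FPKM in the watered and drought day 6 stem, 84.0 and 70.6 FPKM in the day 9 stem, 49.0 and 42.8 FPKM in the day 6 crown, and 26.7 and 22.8 FPKM in the day 9 crown. Sevir.7G290600 (31787409 to 31788460) had 336 and 249 FPKM, 153 and 110 FPKM, 91.8 and 68.0 FPKM, and 45.9 and 36.0 FPKM. The gene between them, Sevir.7G290500, had 6.12 and 9.16 FPKM in the watered and drought day 6 stem, 8.17 and 10.4 FPKM in the day 9 stem, 11.5 and 11.7 FPKM in the day 6 crown, and 7.59 and 8.96 FPKM in the day 9 crown. Its crown was above its stem at day 6 and below it at day 9. The pair and its neighbours were looked at after their values were seen.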

How the data were processed

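Per the submitters' processing notes, FastQC, cutadapt and Cuffdiff were used, without versions. Neither aligner nor build was given in the sources used here, and gene identifiers carry the suffix v1.1. Per the labels' protocols, ribosomal RNA was depleted and libraries kept the strand. The authors deposited 28 tables, 1 for each pair of the 8 groups, with 531416 rows in all and 0 annotated rows. Per the file headers, each row holds the FPKM of both groups, their log2 fold change, and its p-value and q-value. This FPKM is the authors' value for a group of 3 libraries; it carries no standard deviation and the depth is unknown. The deposited log2 fold change equalled the log2 ratio of the deposited FPKM values within 4.75561e-05, and a group's FPKM was the same in each of its tables (largest spread 0).

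Group values were joined by gene, and genes with all 8 values were kept. Ratios used a pseudocount of 1. Fold changes on the FPKM + 1 scale understate the change of low genes. Tests on libraries could not be run on group values, so the calls are the authors' q-values under 0.05, counted over the genes listed in a table. The smallest q-value was 0.00091, reached at a p-value of 5e-05, so genes that share it are not ranked by it. Each p-value tests the difference between 2 groups against the spread between the 3 biological repeats as Cuffdiff modelled it. The genes named were the 10 members with the highest level, the 10 with the lowest mean age ratio, the 6 at either end of the ratio of crown to stem, neighbouring members and 3 genes on each side of the age threshold, which gave 30 members and 3 other genes; further names are those of short lists. The members, the rule and the lists were chosen with earlier results of these data known. Gene lists of pathways and cell types could not be applied because the identifiers matched no name; RefSeq genes of Setaria viridis served as the name table. Alternatives changed the age threshold, the pseudocount, the drought window, the minimum level and the scaling between groups. Python 3.11.15, pandas 2.3.3, numpy 2.4.6 and matplotlib 3.10.9 were used, and the selection was tested on simulated data.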

Additional observations from a re-analysis of the deposited data

How the results depend on the processing

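The number of members depended on the limits of the rule. It was 48 as reported, 8 with age ratios at most 0.5, 188 with age ratios at most 0.7, 25 with a pseudocount of 5, 122 with a drought window of 0.5 to 2 and 13 with a window of 0.8 to its inverse. It moved less with a pseudocount of 0.1 (55 genes, 42 of them members), a minimum level of 2 FPKM (50) or 20 FPKM (37), and a scaling of groups by median ratios (66, 47 of them members). For the 48 members as reported, the median log2 ratio of crown to stem stayed below 0 under each alternative tried. With a pseudocount of 5 it was -1.22 in watered and -1.20 in drought plants at day 6, and -1.05 and -0.83 at day 9. With a pseudocount of 0.1 it was -1.28 under drought at day 9. Among members of at least 20 FPKM it was -1.49 under drought at day 6 and -1.29 at day 9, but this limit acts on the highest group, a day 6 stem for 45 of the 48, and so favours genes high in the stem. Over all genes that each other rule chose, the crown was below the stem in all 4 pairs in 84.0% (pseudocount of 5) to 92.3%. The limit of 20 FPKM is left out of this range. These sets overlap the members, so the range does not come from separate genes. With a pseudocount of 5, 20 of the 25 genes were members. All 13 were members with the window of 0.8 to its inverse, which gave the 92.3%, and all 8 with age ratios at most 0.5. Without the 3 members that share a position entry, an alternative chosen after seeing the data, 45 were left and the counts of region calls remained 36, 36, 33 and 31. The causes were not tested. No paired analysis was possible because the tables give 1 value per group, and leaving out each replicate in turn was not run for the same reason. Without library values the spread between repeats behind a level is unknown, and small differences between members or pairs cannot be judged.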
